A study of Rattus norvegicus with 150 samples.

Results

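The comparison described here set depleted uranium (DU) against tantalum (Ta) 12 months after pellets of either metal were placed in rat skeletal muscle. It was defined by the library labels, which gave 8 DU and 8 Ta libraries at 12 months, 16 of the 150 libraries of the series. All came from the gastrocnemius, a muscle of the calf, of male Sprague-Dawley rats bought at about 30 days of age and acclimated for at least 2 weeks. The age at surgery was not given in the sources used here. Each rat carried 4 pellets, 2 per limb, and each pellet was a cylinder 1 mm across and 2 mm long. Further groups used below carried DU or Ta for 1, 3 or 6 months, or, for 12 months, cobalt (Co) or the metal labelled P, a letter that the design text does not list. Rankings over all 19 groups of the series also took in Co, P and nickel (Ni) muscle at 1, 3 and 6 months. The Ta rats underwent the same surgery and served as the sham group, so every group had a wound and an embedded foreign body and no group was free of metal. The design planned 8 rats per group, but which rat gave which library is not in the labels, and the p-values below therefore reflect how far libraries varied, which may be technical.

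Depleted uranium is a dense, weakly radioactive heavy metal that is also chemically toxic, with the kidney as its best known target organ. A fragment left in muscle corrodes slowly, releases metal into the tissue and the circulation, and becomes surrounded by a fibrous capsule. Tantalum resists corrosion and has long been used in implants, which is why it can stand in for the surgery and the foreign body. Whole muscle RNA mixes fibres with connective tissue, vessel, nerve, fat and immune cells, and in such bulk samples fewer cells of a type cannot be told apart from less RNA per cell. The count table names genes by Ensembl identifier, and 0 of its 32545 identifiers could be paired with a gene name in the reference used. For that reason the muscle label could not be checked against muscle markers, the 37 lists of pathways and cell types that had been set could not be counted, and no role is given for any gene below.

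Total counts ranged from 14757033 to 16947685 in DU libraries and from 14651048 to 18169055 in Ta libraries. Replicates 5 and 6 of DU stood apart from the other 14 libraries in composition. Their 10 most abundant genes took 20.2% and 20.5% of counts, against 26.1% to 33.1% in the other 14. The 90 genes that averaged at least 1000 CPM (counts of a gene scaled to a common library size) across those 14 took 38.8% of counts in DU replicate 5 and 30.5% in DU replicate 6, against 53.7% to 61.4% in the 14. The median log2 difference of these abundant genes from the 14 was -1.09 in replicate 5 and -2.14 in replicate 6. The 5555 genes averaging 10 to 100 CPM lay close to the 14, with medians of 0.09 and -0.05. The median Pearson correlation with the other DU libraries, across genes on the log2 CPM scale, was 0.882 for replicate 5 and 0.748 for replicate 6, whereas the 14 had 0.955 to 0.970 with their own groups. Of 12113 genes, 307 in replicate 5 and 1283 in replicate 6 lay more than 2-fold above every one of the 14, and 384 and 1743 lay more than 2-fold below. Both replicates lay above for 151 genes and below for 289 genes. What sets these libraries apart was not tested, and the comparisons of DU with Ta, P and Co at 12 months were run with and without them.

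**Figure D1:**
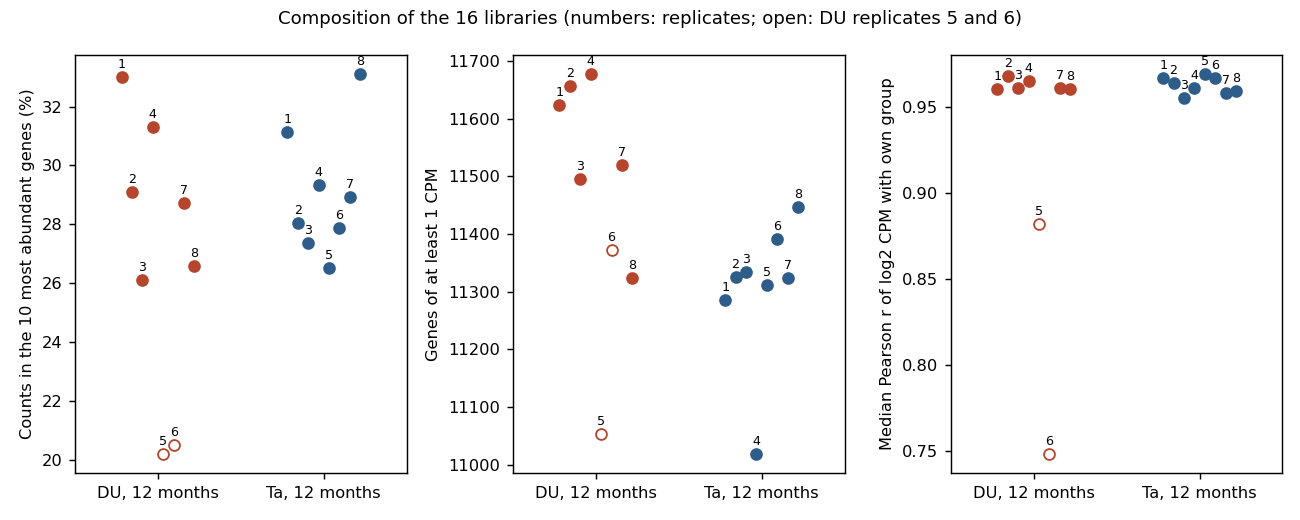
Composition of the 16 libraries at 12 months, with DU to the left of Ta, replicate numbers beside the points and DU replicates 5 and 6 drawn open. The panels show the percentage of counts in the 10 most abundant genes, the number of genes of at least 1 CPM and the median Pearson correlation with the rest of the group. DU replicates 5 and 6 are the lowest points of the left and right panels, at 20.2% and 20.5% and at 0.882 and 0.748.

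The share of counts in the 10 most abundant genes averaged 26.9% ± 4.65 in DU libraries and 29.0% ± 2.16 in Ta libraries (SD, n = 8 each). The difference of -2.10 percentage points was smaller than the spread between libraries (exact two-sided permutation p = 0.273). Without replicates 5 and 6 the DU mean was 29.1% ± 2.66 (SD, n = 6), and the difference was 0.10 percentage points (exact permutation p = 0.94). For the 50 most abundant genes the DU mean was 47.2% ± 8.07 and the Ta mean 52.9% ± 2.94, with an exact permutation p of 0.0701, and 0.30 without the 2 replicates.

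With all 16 libraries, DU and Ta muscle differed in 1 of 12113 genes tested (0.00826%) by the quasi-likelihood test of edgeR at an adjusted p under 0.05. That gene, ENSRNOG00000003172, was higher in DU muscle. Its lowest, median and highest values were 8.33, 17.4 and 21.4 CPM in DU libraries, against 3.37, 6.04 and 8.33 CPM in Ta libraries. DU replicates 1 to 7 lay between 14.5 and 21.4 CPM, above every Ta library, and DU replicate 8 met the highest Ta library at 8.33 CPM. This was a log2 fold change of 1.50 ± 0.20 (SE), with an adjusted p of 0.0104. At 19.0 and 14.5 CPM, DU replicates 5 and 6 lay among the other DU libraries for this gene, and without them the log2 fold change was 1.52 ± 0.21 (adjusted p = 0.00667). The call held in 23 of 24 alternatives, with adjusted p between 5.68e-09 and 0.234.

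The same gene, ENSRNOG00000003172, averaged 16.9 ± 4.35 CPM in DU muscle and 6.02 ± 1.58 CPM in Ta muscle at 12 months, and 22.1 ± 5.32 CPM in DU muscle and 19.4 ± 8.69 CPM in Ta muscle at 6 months (SD, n = 8 each). At 12 months the log2 fold change exceeded that at 6 months by 1.31 ± 0.33 (SE, adjusted p = 0.168), and by 1.32 ± 0.35 (adjusted p = 0.145) without DU replicates 5 and 6. In P muscle at 12 months it averaged 18.9 ± 10.5 CPM, and in Co muscle its lowest, median and highest values were 4.31, 9.56 and 41.0 CPM. The Ta group at 12 months had the lowest mean of these groups, and its 8 libraries all lay at or below 8.33 CPM. DU had a log2 fold change of -0.16 ± 0.30 over P (adjusted p = 0.865) and 0.38 ± 0.35 over Co (adjusted p = 0.732). Without the 2 replicates these were -0.15 ± 0.35 over P (adjusted p = 1) and 0.38 ± 0.43 over Co (adjusted p = 0.881).

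Among genes short of that threshold, more lay higher than lower in DU muscle. At an unadjusted p under 0.05 there were 1777 genes, 1268 higher and 509 lower in DU muscle, and all genes together had a median log2 fold change of 0.04. For 12 genes (0.0991%) every DU library lay above every Ta library, and for 22 genes (0.182%) every DU library lay below every Ta library. The number called depended on the method: DESeq2 called 182 genes, 139 higher and 43 lower, and limma voom with a weight for each library called 354, of which 237 were higher and 117 lower. A single model of all 150 libraries called 747, with 665 higher and 82 lower. By edgeR, 20 genes were called without DU replicate 5, and 5 each without DU replicate 8 or Ta replicate 8.

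Without DU replicates 5 and 6, 127 of 12278 genes passed (1.03%), of which 111 were higher (0.904%) and 16 were lower (0.13%) in DU muscle. These 127 genes are described here as the rises and the falls. The 2 replicates were left out because of their composition, with these data known, so the p-values hold given that choice. The rises were large and the falls small: log2 fold changes of the rises ran between 0.35 and 4.25 with a median of 1.42, and those of the falls between -0.97 and -0.39 with a median of -0.47. Of the rises, 81 were over 2-fold and 20 over 4-fold, whereas 0 of the falls were over 2-fold. At an unadjusted p under 0.05 the directions were closer to even, with 1109 genes higher and 841 lower, and the median over all genes was 0.00.

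The rises were mostly genes of 1 to 10 CPM, whereas the largest class of genes tested was that of 10 to 100 CPM. By the mean of the DU and Ta group means, 3 rises lay under 1 CPM, 80 at 1 to 10 CPM, 27 at 10 to 100 CPM and 1 at 100 to 1000 CPM. Of the falls, 4 lay at 1 to 10 CPM, 10 at 10 to 100 CPM and 2 at 100 to 1000 CPM. The genes tested numbered 4933 at 1 to 10 CPM, 5555 at 10 to 100 CPM and 950 at 100 to 1000 CPM. None of the 90 genes tested at 1000 CPM or more was called in this fit, which called 1.03% of all genes tested. The median log2 fold change of all genes tested also followed the level, being 0.19 in the 750 genes under 1 CPM, 0.07 at 1 to 10 CPM, -0.03 at 10 to 100 CPM, -0.08 at 100 to 1000 CPM and -0.16 in the 90 most abundant genes. Its part in the excess of rises over falls was not tested.

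**Figure D2:**
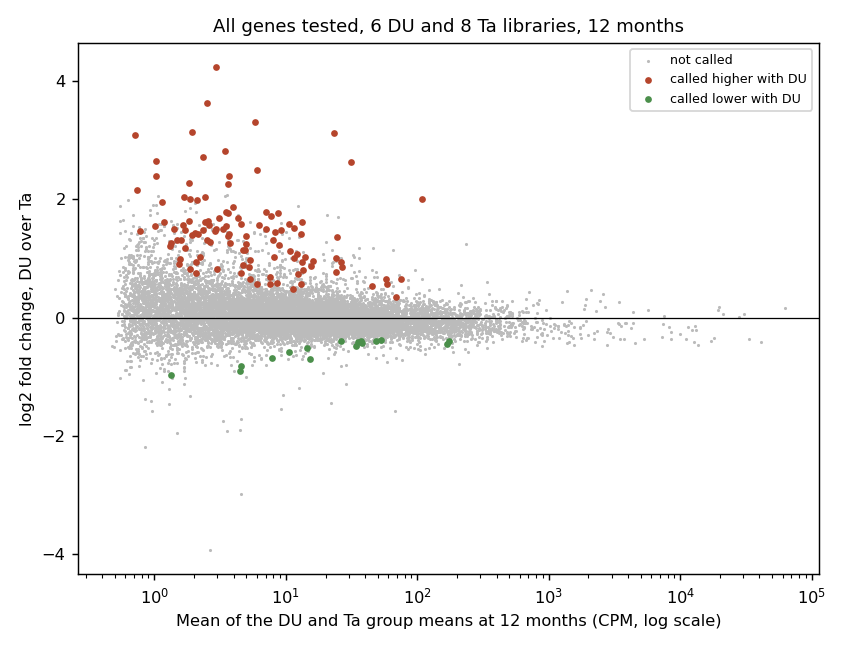
The log2 fold change of DU over Ta at 12 months (vertical axis) against the mean of both group means in CPM (horizontal log axis) for the 12278 genes tested with 6 DU and 8 Ta libraries. Grey points were not called, red points are the 111 rises and green points the 16 falls at an adjusted p under 0.05. The rises reach 4.25 and the falls stay between -0.97 and -0.39. Of the rises, 80 lie at 1 to 10 CPM and 27 at 10 to 100 CPM, where 4933 and 5555 of the genes tested lie.

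The call count rested on single libraries of both groups. Leaving out a DU library gave 22 calls without replicate 1, 8 without replicate 2, 45 without replicate 3, 12 without replicate 4, 48 without replicate 7 and 413 without replicate 8. Leaving out a Ta library gave 29 calls without replicate 1, 14 without replicate 2, 70 without replicate 3, 55 without replicate 4 and 15 without replicate 5. Without Ta replicates 6, 7 or 8 the calls numbered 99, 133 and 155. Of the 413 genes called without DU replicate 8, 126 were among the 127, and 318 of the 413 were higher and 95 lower.

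The 6 DU libraries did not carry the rises alike. DU replicates 1, 2, 3, 4 and 7 each lay above the highest Ta library for 104 to 108 of the 111 rises. DU replicate 8, which was used in the calls, did so for 34. Averaged over the 111 rises, the level was 2.80, 3.02, 2.94, 2.94 and 2.91 log2 CPM in DU replicates 1, 2, 3, 4 and 7 and 1.74 in DU replicate 8, against 0.78 to 1.81 in the 8 Ta libraries. DU replicate 8 lay inside the Ta range on this mean, and the other 5 DU libraries lay above it without overlap. Every DU library of the 6 lay above every Ta library for 21 of the 111 rises, where such a separation held for 34 of all 12278 genes (0.277%). These genes were called on these libraries, so the separations describe them and test nothing.

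DU replicates 5 and 6, which had no part in the calls, differed from each other over the same genes. Replicate 6 averaged 2.43 log2 CPM over the rises, above the highest Ta library, and lay above the Ta median for 77 of the 111. Replicate 5 averaged 1.07 log2 CPM, inside the Ta range, and lay above the Ta median for 36. Replicate 6 lay above the highest Ta library for 66 rises and replicate 5 for 16. The share of all genes above the Ta libraries was not counted for either replicate. Replicate 6 stood apart over many genes, with 1283 of 12113 more than 2-fold above the other 14 libraries and 1743 more than 2-fold below. These counts therefore do not show whether the rises differ from other genes in that library. In the 16-library fit, 104 of the rises passed the filter on low counts, all 104 had a positive log2 fold change with a median of 1.29, and 95 had an unadjusted p under 0.05. That fit shares 14 of its libraries with the one that chose the genes.

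The falls were more even across libraries. Averaged over the 16 falls, the level was 4.00 to 4.22 log2 CPM in the 6 DU libraries and 4.55 to 4.76 log2 CPM in the Ta libraries, with no overlap between the groups. Lower still were DU replicates 5 and 6, at 3.93 and 3.76 log2 CPM. Each of the 6 DU libraries lay below the lowest Ta library for 12 to 16 of the falls, DU replicate 5 for 11 and DU replicate 6 for 12. The share of all genes below the lowest Ta library was not counted for replicates 5 and 6. Of 12113 genes, 384 in replicate 5 and 1743 in replicate 6 lay more than 2-fold below the other 14 libraries. For 12 of the 16 falls all 6 DU libraries lay below all 8 Ta libraries, which held for 44 of all 12278 genes (0.358%). The falls too were called on these libraries, so their separation describes them and tests nothing. In the 16-library fit 15 of the 16 had a negative log2 fold change, with a median of -0.53, and 12 had an unadjusted p under 0.05.

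**Figure D3:**
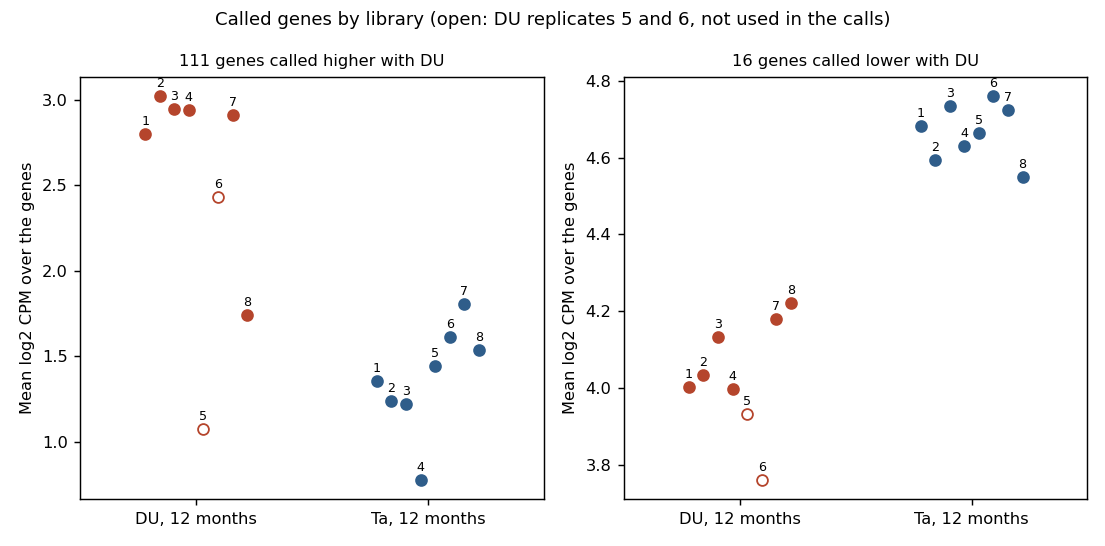
Mean log2 CPM over the 111 rises (left) and the 16 falls (right) in each library at 12 months, with DU left of Ta, replicate numbers beside the points and DU replicates 5 and 6 drawn open. Over the rises, DU replicates 8 and 5 lie in the Ta range of 0.78 to 1.81, and over the falls every DU library lies below every Ta library.

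The 2 largest rises at or above 1 CPM in a group were genes with at most 1.43 CPM in any Ta library at 12 months. ENSRNOG00000004635 had a lowest, median and highest value of 0.304, 4.84 and 13.6 CPM in the 6 DU libraries, against 0, 0.161 and 1.43 CPM in Ta libraries, of which 3 had 0 counts. A count of 0 allows up to 3 counts, a limit that covers counting error only. DU replicate 8, at 0.304 CPM, lay inside the Ta range and the other 5 DU libraries above it. Its log2 fold change was 4.25 ± 0.82 (SE, adjusted p = 0.0338), and the call held in 7 of the 20 alternatives that gave a value, with adjusted p between 0.0027 and 0.23. In DU replicates 5 and 6 it stood at 0.36 and 0 CPM, and with them it did not pass the filter on low counts. At 6 months it averaged 9.68 ± 4.56 CPM in DU muscle and 11.4 ± 10.9 CPM in Ta muscle, and at 12 months 4.36 ± 4.91 CPM in P muscle and 0.616 ± 1.43 CPM in Co muscle (SD, n = 8 each). At 1 and 3 months the means were 0.862 and 0.649 CPM in Ta muscle and 1.95 and 0.788 CPM in DU muscle. Ta muscle was thus lower at 12 than at 6 months, but its means at 1 and 3 months were also below that at 6 months. The difference of log2 fold changes between 6 and 12 months was 4.48 ± 1.10 without DU replicates 5 and 6 (SE, adjusted p = 0.136) and 4.06 ± 1.21 with them (adjusted p = 0.179).

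ENSRNOG00000020622 ran from 0.486 through a median of 3.87 to 10.5 CPM in the 6 DU libraries, against 0.055, 0.198 and 1.37 CPM in Ta libraries. Again DU replicate 8 alone of the 6 fell inside the Ta range. The log2 fold change was 3.64 ± 0.67 (SE, adjusted p = 0.0255), a call that held in 13 of 21 alternatives with adjusted p between 0.000458 and 0.223. The values of DU replicates 5 and 6 were 0.451 and 0 CPM, and with all 16 libraries the log2 fold change was 3.22 ± 0.88 (adjusted p = 0.17). At 6 months this gene averaged 7.98 ± 5.03 CPM in DU muscle and 7.93 ± 7.66 CPM in Ta muscle, and at 12 months 4.17 ± 6.09 CPM in P muscle and 0.444 ± 0.635 CPM in Co muscle (SD, n = 8 each). Its means at 1 and 3 months were 1.53 and 0.800 CPM in Ta muscle and 3.28 and 1.50 CPM in DU muscle, also below those at 6 months. As for the gene before it, DU replicates 5, 6 and 8 were the 3 lowest DU libraries at 12 months.

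The gene with the lowest adjusted p, ENSRNOG00000019473, was chosen after its values were seen. It stood at 9.31, 5.80, 5.25, 18.6, 6.92 and 17.9 CPM in DU replicates 1, 2, 3, 4, 7 and 8, and at a lowest, median and highest of 0.735, 1.03 and 1.71 CPM in Ta libraries. The 6 DU libraries lay above every Ta library, DU replicate 8 included, while DU replicates 5 and 6, at 0.496 and 0 CPM, lay below every Ta library. The log2 fold change was 3.31 ± 0.32 (SE, adjusted p = 0.000154) without the 2 replicates and 2.89 ± 0.72 (adjusted p = 0.164) with them. The call held in 20 of 21 alternatives, with adjusted p between 3.6e-20 and 0.0549, the highest being that of the model of 148 libraries. Some libraries of other metals were as high: it averaged 6.61 ± 10.2 CPM in P muscle and 11.7 ± 14.9 CPM in Co muscle at 12 months (SD, n = 8 each), with single libraries up to 25.5 and 45.3 CPM. At earlier times some Ta libraries were also as high. The highest Ta library had 1.16, 12.4 and 9.77 CPM at 1, 3 and 6 months, with group medians of 0.993, 0.677 and 0.946 CPM. The highest DU library had 4.12, 18.8 and 10.9 CPM at those times.

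The 2 largest falls were ENSRNOG00000007600 and ENSRNOG00000002831. ENSRNOG00000007600 had 0.512, 0.89 and 1.34 CPM as its lowest, median and highest in the 6 DU libraries, against 1.42, 1.73 and 2.21 CPM in Ta libraries, so the groups did not overlap. Lower than these 6 were DU replicates 5 and 6, at 0.18 and 0.0824 CPM. The log2 fold change was -0.97 ± 0.22 (SE, adjusted p = 0.047) without them and -1.35 ± 0.38 (adjusted p = 0.181) with them. The call held in 5 of 21 alternatives, with adjusted p between 0.00726 and 0.373.

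ENSRNOG00000002831 had 1.92, 3.26 and 3.65 CPM as its lowest, median and highest in the 6 DU libraries, against 4.17, 6.02 and 6.94 CPM in Ta libraries. At 3.78 and 3.79 CPM, DU replicates 5 and 6 also lay below every Ta library, so all 8 DU libraries were separate from all 8 Ta libraries. The log2 fold change was -0.91 ± 0.17 (SE, adjusted p = 0.0234) without the 2 replicates and -0.84 ± 0.16 (adjusted p = 0.134) with them. At 6 months this gene averaged 3.33 ± 0.583 CPM in DU muscle and 3.49 ± 0.563 CPM in Ta muscle (SD, n = 8 each), against a Ta mean of 5.90 ± 1.00 CPM at 12 months. The call held in 13 of 21 alternatives, with adjusted p between 8.59e-05 and 0.21.

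**Figure D4:**
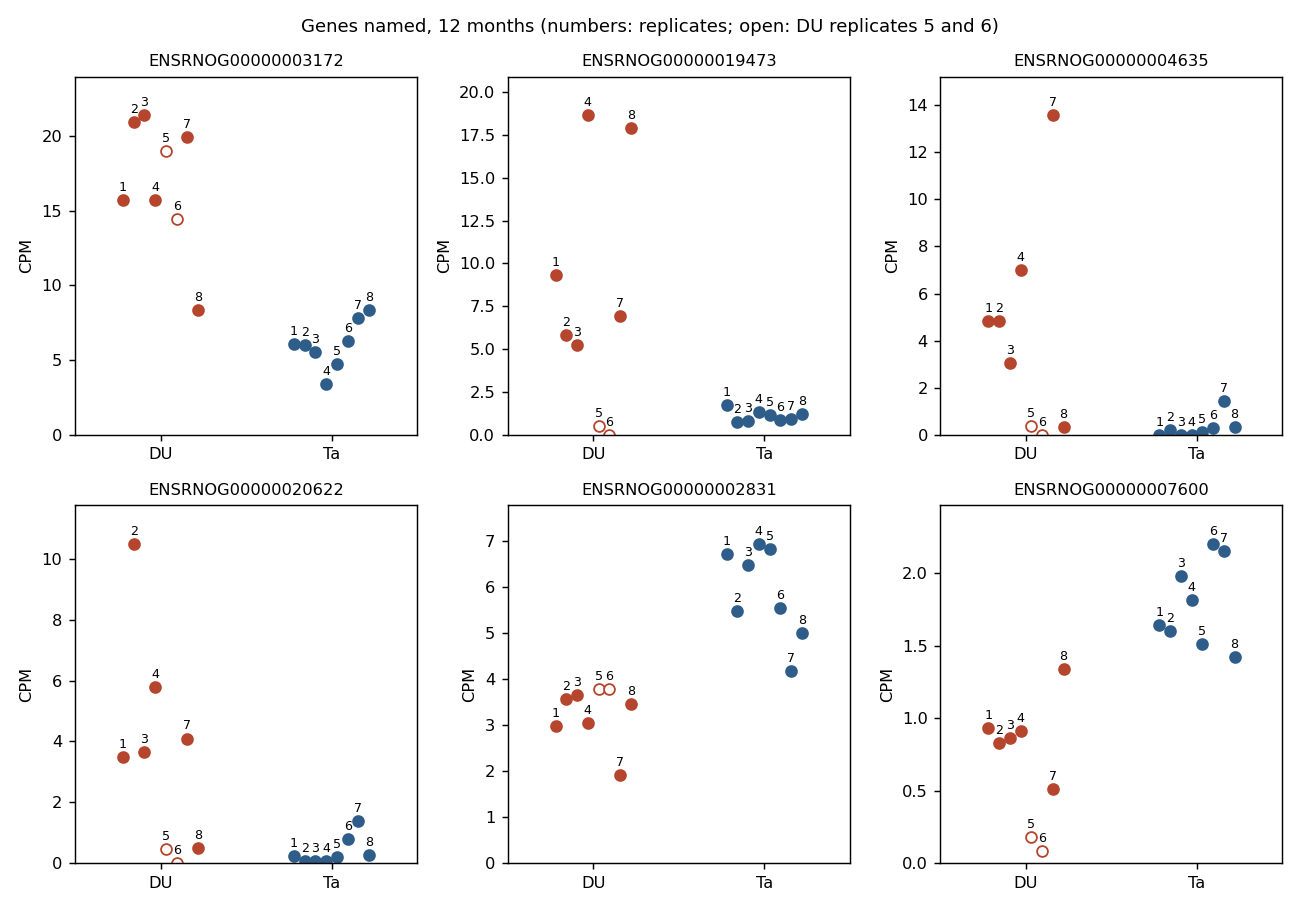
CPM of 6 named genes in each library at 12 months, with DU left of Ta, replicate numbers beside the points and DU replicates 5 and 6 drawn open. The upper row and the lower left panel show genes higher in DU muscle, and the other lower panels show the 2 falls. For ENSRNOG00000004635 and ENSRNOG00000020622, DU replicates 5, 6 and 8 lie at Ta levels.

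Set against the other 17 groups of the series, the rises more often had the Ta group of 12 months at the bottom than the DU group at the top, in means of log2 CPM. For 79 of the 111 rises the Ta group at 12 months had the lowest of the 19 group means, and for 12 the DU group at 12 months, without replicates 5 and 6, had the highest. Over all 12278 genes tested, those counts were 994 (8.10%) and 405 (3.30%). Without DU replicate 2 of 3 months they were 84 and 14 of the rises, and 1036 and 440 of all genes. With DU replicates 5 and 6 of 12 months, and replicate 2 of 3 months, kept in, they were 79 and 10 of the rises. Over all genes they were then 985 (8.02%) and 793 (6.46%). With all libraries of the other groups, for 99 of the rises the DU mean without replicates 5 and 6 lay within the range of the other 17 groups. That count was not made over all genes tested, so it does not show whether the rises differ from other genes. Averaged over the rises, DU muscle stood at 2.39 ± 0.37, 2.05 ± 0.38, 2.73 ± 0.15 and 2.73 ± 0.49 log2 CPM at 1, 3, 6 and 12 months (SD, n = 6 at 12 months and 8 before). Ta muscle stood at 2.18 ± 0.19, 1.97 ± 0.48, 2.51 ± 0.47 and 1.37 ± 0.31 log2 CPM at the same times (SD, n = 7 at 1 month and 8 at the others). At 12 months the other metals averaged 2.64 ± 0.40 (P) and 1.90 ± 0.67 (Co). With replicates 5 and 6 the DU mean at 12 months was 2.48 ± 0.71 log2 CPM (n = 8). The genes were chosen on the difference between DU and Ta at 12 months, a choice that favours both a low Ta group and a high DU group at that time.

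The falls showed both sides of the difference. Averaged over the 16 genes, DU muscle stood at 4.55, 4.13, 4.33 and 4.09 log2 CPM at 1, 3, 6 and 12 months, and Ta muscle at 4.63, 4.60, 4.36 and 4.67 log2 CPM. At 3 months DU replicate 2 stood at 1.99 log2 CPM, far below the other 7, and the median over the 8 was 4.41. Without it the DU mean at 3 months was 4.44 log2 CPM. For 5 of the 16 falls the Ta mean at 12 months was the highest of the 19 group means, and for 6 the DU mean was the lowest. Over all genes tested this held for 967 (7.88%) and 362 (2.95%). Without DU replicate 2 of 3 months the counts for the falls were 5 and 8. With DU replicates 5 and 6 of 12 months, and replicate 2 of 3 months, kept in, they were also 5 and 8. Over all genes tested they were then 897 (7.31%) and 728 (5.93%). At 12 months P muscle averaged 4.25 and Co muscle 4.38 log2 CPM, between the DU and Ta groups.

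**Figure D5:**
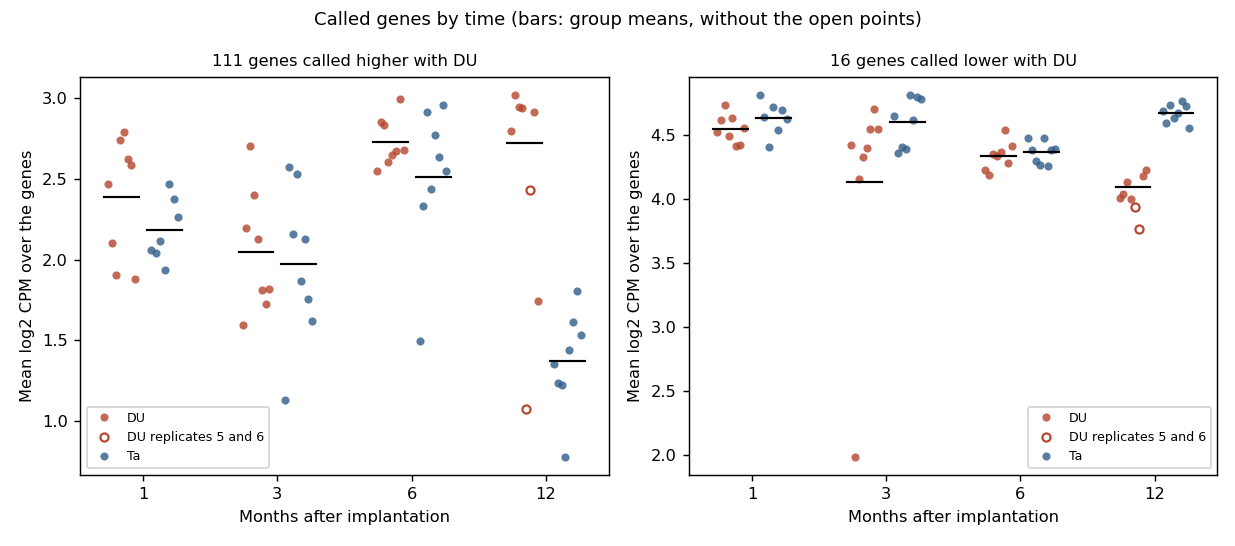
Mean log2 CPM over the 111 rises (left) and the 16 falls (right) in each DU and Ta library at 1, 3, 6 and 12 months after implantation, with DU left of Ta at each time, group means as bars and DU replicates 5 and 6 of 12 months drawn open and left out of the bar. Over the rises the Ta mean is 1.37 at 12 months and 1.97 to 2.51 at the earlier times, and the DU mean is 2.73 at 6 and 12 months.

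The libraries of the earlier times had no part in choosing the genes. There the rises had small medians that were above 0 with all libraries. At 6 months the median log2 fold change was 0.16 over the 110 rises tested, of which 73 were above 0, against a median of 0.01 over all genes, of which 51.2% were above 0. At 3 months it was 0.22 over 104 rises, 61 of them above 0, against 0.04 and 53.1% over all genes, and at 1 month 0.24 over 106 rises, 82 of them above 0, against 0.00 and 50.9%. With all libraries, edgeR called 0 genes at each of these times (0%), while 12, 29 and 18 of the rises had an unadjusted p under 0.05 at 6, 3 and 1 months. Those were 10.9%, 27.9% and 16.98% of the rises tested, against 13.04%, 26.5% and 8.07% of all genes tested at the same times. Of them, 10, 20 and 16 were higher in DU muscle, and 2, 9 and 2 were lower. By direction, 3.24%, 14.7% and 3.94% of all genes tested had such a p and were higher. Those that had such a p and were lower made up 9.80%, 11.8% and 4.13%. The median of the 16 falls was -0.04 at 6 months, -0.36 at 3 months and -0.12 at 1 month, with 8, 13 and 13 of them below 0.

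The 3-month values rested on 1 library. DU replicate 2 at 3 months correlated with its group at a median r of 0.494, where the other 7 had 0.953 to 0.970. Without it, a setting chosen after seeing the data, the median of the 104 rises was -0.04, with 45 above 0, against a median of -0.03 and 47.3% above 0 over all genes. The fit then called 744 of 12291 genes (6.05%), 260 higher and 484 lower in DU muscle, among them 2 of the rises and 0 of the falls. Of these 2, 1 was higher and 1 lower. The falls had a median of -0.21, with 13 of 16 below 0 and 5 (31.3%) at an unadjusted p under 0.05, where 31.3% of all genes had such a p. Among the 104 rises, 22 (21.2%) had one, of which 10 were higher and 12 lower in DU muscle. Over all genes, 13.5% had one and were higher, and 17.8% had one and were lower.

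A direct test of the change with time, the DU minus Ta difference at 12 months minus that at 6 months, called 0 of 12810 genes (0%) with edgeR, with 2019 genes at an unadjusted p under 0.05 and 53 genes called by DESeq2. The lowest adjusted p was 0.113, shared by the 2 genes of lowest p. ENSRNOG00000007029 was higher in DU than in Ta muscle at 12 months, with 71.7 ± 6.81 CPM in DU against 47.3 ± 9.03 CPM in Ta, and lower at 6 months, with 48.2 ± 7.23 CPM in DU against 66.9 ± 23.2 CPM in Ta (SD over 8 libraries each). All 8 DU libraries lay above all 8 Ta libraries at 12 months, and the difference of log2 fold changes was 1.08 ± 0.21 (SE), or 1.04 ± 0.22 without DU replicates 5 and 6 (adjusted p = 0.0816). This gene was also among the rises, with a log2 fold change of 0.57 ± 0.11 at 12 months (SE, edgeR adjusted p = 0.028), and both tests share 12-month libraries. ENSRNOG00000060057 stood at 0.452 ± 0.391 CPM in DU and 2.37 ± 3.03 CPM in Ta muscle at 12 months, and at 3.15 ± 1.71 CPM in DU and 0.627 ± 0.475 CPM in Ta muscle at 6 months. That was a difference of log2 fold changes of -4.78 ± 0.95 (SE), or -4.35 ± 0.92 without the 2 replicates (adjusted p = 0.0816). Its Ta libraries at 12 months ran from 0.182 to 9.39 CPM, with a median of 1.17 CPM and the highest value in Ta replicate 7. DU against Ta at 12 months did not call this gene by edgeR, with all 16 libraries (adjusted p = 0.21) or without DU replicates 5 and 6 (adjusted p = 0.221).

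Without DU replicates 5 and 6 the same test called 1 of 12949 genes (0.00772%), with 2139 at an unadjusted p under 0.05. ENSRNOG00000020980, named after its value was seen, had 1.72 ± 0.718 CPM in the 6 DU libraries and 0.323 ± 0.178 CPM in Ta muscle at 12 months, and 1.72 ± 0.375 CPM in DU and 1.75 ± 0.623 CPM in Ta muscle at 6 months (SD, n = 8 in the other groups). Its difference of log2 fold changes was 2.42 ± 0.42 (SE, edgeR adjusted p = 0.0384), and 2.00 ± 0.65 with all libraries (adjusted p = 0.189). It was also among the rises, with a log2 fold change of 2.40 ± 0.38 at 12 months (edgeR adjusted p = 0.0135), and both tests used the same 12-month libraries. The DU means at both times were equal at this rounding, and the Ta libraries at 12 months all lay below those at 6 months. At 1 and 3 months this gene averaged 1.18 and 0.644 CPM in Ta muscle and 1.24 and 0.784 CPM in DU muscle. DU replicates 5 and 6 stood at 0.225 and 0 CPM. The next lowest p was that of ENSRNOG00000060970, which had 2.82 ± 1.62 CPM in the 6 DU libraries and 0.14 ± 0.164 CPM in Ta muscle at 12 months, and 3.20 ± 1.70 CPM in DU and 3.77 ± 2.75 CPM in Ta muscle at 6 months. At 1 and 3 months ENSRNOG00000060970 averaged 1.23 and 0.508 CPM in Ta muscle and 2.05 and 0.799 CPM in DU muscle. For it the difference of log2 fold changes between 6 and 12 months was 4.52 ± 0.86 (SE, adjusted p = 0.0747) without DU replicates 5 and 6 and 4.09 ± 1.03 (adjusted p = 0.168) with them.

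Against the other metals at 12 months, few genes or none passed the test. DU against P called 0 of 12318 genes (0%) with edgeR and 0 with DESeq2, with 746 at an unadjusted p under 0.05, and 0 of 12492 (0%) without DU replicates 5 and 6, with 251. ENSRNOG00000039278 had the lowest p, at 2.07 ± 0.511 CPM in DU and 4.30 ± 1.40 CPM in P muscle (SD, n = 8 each), a log2 fold change of -1.06 ± 0.24 (SE, adjusted p = 0.789), or -1.11 ± 0.26 (adjusted p = 1) without the 2 replicates. ENSRNOG00000038864 followed, at 1.64 ± 1.02 CPM in DU and 0.666 ± 0.184 CPM in P muscle, a log2 fold change of 1.30 ± 0.33 with the same adjusted p, or 0.99 ± 0.28 (adjusted p = 1) without them. Without the 2 replicates the lowest p was that of ENSRNOG00000045543, at 12.2 ± 6.54 CPM in the 6 DU libraries and 4.53 ± 1.49 CPM in P muscle. It had a log2 fold change of 1.43 ± 0.31 (adjusted p = 1), and of 1.13 ± 0.39 (adjusted p = 0.789) with all libraries.

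DU against Co called 0 of 12244 genes (0%) with edgeR, with 1017 at an unadjusted p under 0.05, while DESeq2 called 6, all higher in DU muscle. ENSRNOG00000007393 had 15.8 ± 4.53 CPM in DU and 8.14 ± 2.56 CPM in Co muscle, a log2 fold change of 0.96 ± 0.21 (SE, adjusted p = 0.594), or 0.96 ± 0.19 (adjusted p = 0.262) without DU replicates 5 and 6. ENSRNOG00000046652 had 2.09 ± 0.59 CPM in DU and 0.73 ± 0.439 CPM in Co muscle (SD, n = 8 each), a log2 fold change of 1.51 ± 0.33 with the same adjusted p, or 1.57 ± 0.36 (adjusted p = 0.3005) without the 2 replicates. Without DU replicates 5 and 6, edgeR called 1 of 12410 genes (0.00806%), with 903 at an unadjusted p under 0.05.

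That gene, ENSRNOG00000016752, was named after its value was seen. It had 11.5, 14.4 and 18.9 CPM as its lowest, median and highest in the 6 DU libraries, against 6.03 to 9.67 CPM in Co libraries, which did not overlap them. DU replicates 5 and 6 stood on either side, at 5.72 and 46.9 CPM. Its log2 fold change of DU over Co was 0.99 ± 0.14 (SE, adjusted p = 0.0298), and 1.25 ± 0.31 (adjusted p = 0.594) with all 8 DU libraries. It was also among the rises against Ta, where the libraries stood at 3.70 to 8.65 CPM and the log2 fold change was 1.13 ± 0.18 (adjusted p = 0.0135), or 1.38 ± 0.33 (adjusted p = 0.159) with all 8. In P muscle it averaged 16.7 ± 13.3 CPM, and the log2 fold change of DU over P was -0.19 ± 0.36 (adjusted p = 1), or 0.08 ± 0.41 (adjusted p = 0.952) with all 8.

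The comparisons with Ta, P and Co use the same 6 DU libraries, and the rises were chosen on those libraries, so their values are given side by side. Over the 111 rises, the median log2 fold change of DU was 1.42 over Ta, 0.48 over Co and 0.06 over P. Over the 16 falls it was -0.47 over Ta, -0.23 over Co and -0.14 over P. With all 8 DU libraries the medians of the rises tested were 1.29 over Ta, 0.46 over Co and -0.04 over P.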

How the data were processed

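Per the labels' protocols, 1000 ng of total RNA went into each stranded library, and 10 libraries shared a lane of paired 100-base reads. HISAT2 2.0.5 aligned the reads to Rnor_6.0 and featureCounts 1.5.0-p3 counted them, per the submitters' processing notes. Annotation release, strand setting, lanes and batches are not given in the sources used here, and overlapping, antisense or near-identical genes may share reads. What the authors deposited is a table of raw counts, whole numbers that were not normalized. No DU pair and no Ta pair of libraries was identical within sampling noise (lowest chi-square per degree of freedom 21.0 and 13.0).

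Only the groups compared entered a fit. Low genes were removed with filterByExpr, and the test was the quasi-likelihood one of edgeR 4.0.16 in R 4.3.3 with limma 3.58.1 (TMM, robust dispersions, glmQLFit, glmQLFTest). P-values were adjusted by Benjamini-Hochberg over all genes tested, with a threshold of 0.05. The SE is the log2 fold change over the square root of F. CPM values use TMM factors of all 150 libraries together, and log2 CPM adds a prior count of 2. Shares of counts were compared by exact permutation (scipy 1.17.1). Named genes were the calls of the 16-library test, the 2 largest rises and falls of the 14-library test with at least 1 CPM in a group and 75% of DU libraries beyond the Ta median, and the 2 lowest p of each other comparison. After values were seen, the last part was also applied without DU replicates 5 and 6. Identifiers outside this rule are marked in the text. The groups, lists and left-out libraries were chosen with earlier results of these data known. The test was checked on simulated counts. Alternatives were RLE factors, a fit without the low-count filter, the DESeq2 1.42.0 test, voom with library weights, all libraries in 1 model, a replicate block, and leaving out libraries. Library totals without TMM, the 148-library model and results without DU replicate 2 of 3 months were added after seeing the data.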

Additional observations from a re-analysis of the deposited data

Results flagged for a closer look

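Of 54 sets of 8 libraries examined for 1 library far from the rest, 11 held such a value. The cut-off gives about 1 in 20 for independent sets of normally distributed values. These sets share libraries and many hold low, uneven CPM values, so that rate need not apply to them. DU replicate 8 had the highest total of its group, 16947685 counts. DU replicate 6 had the lowest correlation with its group, 0.748. Ta replicate 4 had the fewest genes of at least 1 CPM, 11019.

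The other 8 were values of named genes. ENSRNOG00000004635 reached 1.43 CPM in Ta replicate 7, and ENSRNOG00000002831 stood at 1.92 CPM in DU replicate 7, the lowest of its group. DU replicate 6 was the highest of its group for ENSRNOG00000038864, at 3.96 CPM, and for ENSRNOG00000016752, at 46.9 CPM. Without DU replicates 5 and 6 the log2 fold change of ENSRNOG00000038864 over P was 0.99 ± 0.28 (SE, edgeR adjusted p = 1). ENSRNOG00000046652 was highest in replicate 4 of both groups, at 3.41 CPM in DU and 2.72 CPM in Ta. ENSRNOG00000007393 reached 14.2 CPM in Co replicate 8, and ENSRNOG00000060057 reached 9.39 CPM in Ta replicate 7.

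For ENSRNOG00000020980 the difference between DU and Ta at 12 months exceeded that at 6 months by 2.42 on the log2 scale without DU replicates 5 and 6 (edgeR adjusted p = 0.0384). With all libraries it was 2.00 ± 0.65 (SE, adjusted p = 0.189).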

How the results depend on the processing

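In the 16-library comparison of DU with Ta, the main count of 1 call became 182 with DESeq2, 354 with voom, 747 with 150 libraries in 1 model, 5 with library totals in place of TMM factors and 127 without DU replicates 5 and 6. Leaving out 1 library gave 1 to 20 calls. RLE factors and no filter on low counts each gave 1. In the 14-library comparison, 127 calls became 458 with DESeq2 (127 shared), 500 with voom (126 shared), 252 with library totals (247 higher, 5 lower, 116 shared) and 45 in the model of 148 libraries (43 higher, 2 lower, 28 shared). RLE factors gave 105 and no filter 90, of which 105 and 80 were among the 127. Leaving out 1 library gave 8 to 413. Library totals moved the median log2 fold change of all genes to 0.32 with 16 libraries and 0.10 with 14, so rises under that scaling are relative to that shift. For the 6 genes named from these comparisons the direction held in every alternative that gave a value. The causes of these changes were not tested.

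Against Co, 0 calls became 6 with DESeq2 and 1 without DU replicates 5 and 6, and for the change between 6 and 12 months 0 became 53 (42 higher, 11 lower) and 1. Against P, all 5 alternatives gave 0. The difference in the share of the 10 most abundant genes lay between -2.96 and -1.13 percentage points without 1 library (exact permutation p between 0.119 and 0.523).

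Correlations of same-numbered libraries ran between -0.273 and 0.229, and 2 of 8 DU libraries correlated best with the Ta library of their number. Whether libraries of the same number shared a lane or another block is not in the labels. With a replicate block the calls were 0 with 16 libraries, where ENSRNOG00000003172 had an adjusted p of 0.234, 1 with 14, and 0 against P, against Co and for the change with time. Genes listed under 1 CPM rest on few counts in libraries of 14651048 to 18169055 counts, which limits what can be seen there.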
